A study of Mus musculus with 12 samples.

Results

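The Vmn1r genes, which encode vomeronasal type 1 receptors, were taken as every protein-coding gene of the RefSeq annotation (GRCm38.p6) whose symbol is Vmn1r followed by digits. This gave 230 of 21887 protein-coding genes. Peaks were read for them from ChIP-seq (chromatin immunoprecipitation followed by sequencing) of mouse dorsal hippocampus with a pan-Kcr antibody, which binds lysine crotonylation, a short-chain acylation found on histones. The learning library came from C57BL/6J mice trained in the spatial object recognition task, and the homecage library from C57BL/6J mice left in the home cage. Both used the same antibody on crosslinked tissue. Age, sex, the time between training and dissection and the pooling of animals are not given for these libraries. With 1 library per condition, no difference between the conditions was tested, and every value describes these 2 libraries of the 12 in the series. The input libraries were not analysed here.

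Vomeronasal type 1 receptors are G protein-coupled receptors of sensory neurons in the apical layer of the vomeronasal organ, where they detect small pheromones and other social odours. They signal through the inhibitory G protein subunit encoded by Gnai2 and the ion channel encoded by Trpc2, and each neuron is thought to express 1 receptor gene from 1 allele. The genes lie in tandem clusters that have expanded by repeated duplication, and the hippocampus is not known as a site of their function. A peak list holds no expression level, so markers of hippocampal cells could not be read from it.

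The members fell on chromosomes 7 (126 genes), 6 (51), 13 (35), 17 (14), 4 (2), 1 (1) and 18 (1). Members less than 500 kb apart were joined into 16 clusters, of which 10 held at least 5 members and 3 held 1. The largest cluster, cluster 12 (GRCm38, chr7:20101158-24055691), held 86 members in 3.96 Mb. Most members were short: their annotated length ran from 870 to 33695 bp with a median of 924 bp, and 187 were no longer than 1000 bp. The length was a multiple of 3 in 200 members, but whether the annotated gene is the coding length was not checked.

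RefSeq start regions of 300 bases, from 250 bases before to 50 bases after the annotated start, were matched to 205 members by gene identifier. In 180 of the 205 the annotated start is a start codon (ATG at base 251), so these regions are the bases around the start of translation. Of the 7 shown here, all in the GRCm38.p6 build and written 5′ to 3′ on the gene's strand, the first 3 are among the 4 start regions with a learning peak over them, and capitals mark the bases under a learning peak. Vmn1r94 (chr7:20168328-20168627, minus strand) has the same 300 bases as Vmn1r142, Vmn1r254 (chr7:22370990-22371289, minus strand) the same as Vmn1r244 and Vmn1r120, and Vmn1r152 (chr7:22522717-22523016, plus strand) the same as Vmn1r104. None of those copies had a learning peak in the gene or within 1 kb.
Vmn1r94: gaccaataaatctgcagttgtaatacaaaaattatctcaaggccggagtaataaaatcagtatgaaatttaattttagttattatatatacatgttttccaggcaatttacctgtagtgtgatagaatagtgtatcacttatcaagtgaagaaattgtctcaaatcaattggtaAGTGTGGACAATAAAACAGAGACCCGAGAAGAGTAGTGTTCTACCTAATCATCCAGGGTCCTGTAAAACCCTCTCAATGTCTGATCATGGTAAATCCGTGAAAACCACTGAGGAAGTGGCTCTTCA
Vmn1r254: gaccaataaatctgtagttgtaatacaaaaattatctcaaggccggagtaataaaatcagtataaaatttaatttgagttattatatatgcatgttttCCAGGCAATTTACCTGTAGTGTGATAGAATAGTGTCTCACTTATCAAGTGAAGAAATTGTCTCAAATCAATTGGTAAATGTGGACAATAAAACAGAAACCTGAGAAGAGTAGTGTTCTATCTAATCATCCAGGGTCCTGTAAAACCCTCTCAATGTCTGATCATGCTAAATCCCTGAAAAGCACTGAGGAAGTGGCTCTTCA
Vmn1r152: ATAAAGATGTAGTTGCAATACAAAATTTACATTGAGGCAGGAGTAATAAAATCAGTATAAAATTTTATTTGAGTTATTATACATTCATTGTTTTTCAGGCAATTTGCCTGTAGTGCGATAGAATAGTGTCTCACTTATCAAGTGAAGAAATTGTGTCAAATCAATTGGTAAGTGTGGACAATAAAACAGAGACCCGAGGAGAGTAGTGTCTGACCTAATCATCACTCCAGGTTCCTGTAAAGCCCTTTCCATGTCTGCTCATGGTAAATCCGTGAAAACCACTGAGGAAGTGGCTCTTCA

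In the other 4, capitals mark the bases under a homecage peak, which lies over the start region of the first 3 and is absent from the fourth. Vmn1r138 (chr7:22028848-22029147, minus strand) belongs to the largest set of identical start regions, shared by 6 members. Vmn1r250 (chr7:22134692-22134991, minus strand) lies at the edge of the widest homecage peak at any member and has the same 300 bases as Vmn1r93, Vmn1r114 and Vmn1r126. Vmn1r234 (chr17:21228576-21228875, plus strand) has no near copy and the highest homecage cover of the chromosome 17 cluster. Vmn1r49 (chr6:90072969-90073268, minus strand), also known as V1rb2, had no peak in either list.
Vmn1r138: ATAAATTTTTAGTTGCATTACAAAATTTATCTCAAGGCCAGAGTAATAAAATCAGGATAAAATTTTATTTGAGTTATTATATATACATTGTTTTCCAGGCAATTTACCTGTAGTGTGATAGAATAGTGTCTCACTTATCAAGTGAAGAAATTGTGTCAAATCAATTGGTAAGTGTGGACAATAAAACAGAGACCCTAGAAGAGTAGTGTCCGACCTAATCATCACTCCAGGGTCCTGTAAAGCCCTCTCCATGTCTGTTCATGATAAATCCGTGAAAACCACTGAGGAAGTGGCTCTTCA
Vmn1r250: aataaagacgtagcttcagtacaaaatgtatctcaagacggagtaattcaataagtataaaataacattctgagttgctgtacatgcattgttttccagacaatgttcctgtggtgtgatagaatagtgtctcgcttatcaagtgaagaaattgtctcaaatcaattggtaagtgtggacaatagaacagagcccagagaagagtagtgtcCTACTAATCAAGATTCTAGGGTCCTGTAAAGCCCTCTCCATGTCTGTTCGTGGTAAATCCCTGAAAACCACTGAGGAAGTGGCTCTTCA
Vmn1r234: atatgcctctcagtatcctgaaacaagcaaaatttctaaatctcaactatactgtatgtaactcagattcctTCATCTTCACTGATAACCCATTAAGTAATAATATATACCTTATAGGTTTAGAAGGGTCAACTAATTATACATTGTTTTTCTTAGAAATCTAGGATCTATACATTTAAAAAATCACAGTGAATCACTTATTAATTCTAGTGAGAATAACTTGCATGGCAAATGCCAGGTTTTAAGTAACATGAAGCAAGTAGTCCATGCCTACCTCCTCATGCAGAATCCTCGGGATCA
Vmn1r49: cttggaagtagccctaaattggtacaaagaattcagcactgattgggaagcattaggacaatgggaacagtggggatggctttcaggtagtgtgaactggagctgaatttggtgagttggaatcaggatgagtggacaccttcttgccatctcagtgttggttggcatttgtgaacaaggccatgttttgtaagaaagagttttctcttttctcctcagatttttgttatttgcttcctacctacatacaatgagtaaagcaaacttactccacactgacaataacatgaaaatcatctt

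A member was counted as having a peak where a peak overlapped the gene or the 1 kb on either side of it by at least 1 bp. In the learning list 18 of 230 members had a peak, 7.83% (exact Clopper-Pearson 95% interval 4.70 to 12.1), against 26.9% of all protein-coding genes. In the homecage list 138 of 230 had one, 60.0% (53.4 to 66.4), against 81.7% of all protein-coding genes. Both member shares were thus below the all-gene shares, in which the genes have a median length of 17169 bp. In the gene body alone the member shares were 5.22% (learning) and 38.7% (homecage), against 24.8% and 76.9% of all protein-coding genes. These intervals, here and below, cover counting error only, and neighbouring genes and copies are not independent. The lists differ in size, with 16002 learning and 331236 homecage peaks on chromosomes 1 to 19, X and Y, and the read depth behind each is unknown.

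Across the 2 lists 15 members had peaks from both, 3 had learning peaks without a homecage peak, 123 had homecage peaks without a learning peak and 89 had none. Of the 230 members, 92 had no homecage peak, 88 had 1, 42 had 2, 5 had 3 and 3 had 4. The members without any peak include Vmn1r186 and Vmn1r187, which lie below position 3009800, where the first peak of chromosome 7 starts in these lists. Learning peaks covered 0.801% of the bases of the member windows, against 0.289% for all protein-coding genes, and homecage peaks 12.1% against 5.52%. Without the largest cluster the values were 0.261% and 5.79%, so that the learning cover was below the all-gene value and the homecage cover close to it.

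The reading against other genes depended on how length was matched. The 14304 other protein-coding genes within the members' length range had a median length of 9809 bp, and their shares were 18.1% (learning) and 76.9% (homecage), so that the differences (members minus other genes) were -10.3 and -16.9 percentage points. Among the 3611 other genes between the 5th and 95th percentile of the members' lengths (897 to 4086 bp) the shares were 8.50% and 52.4%, and the differences were -0.676 and 7.58 points. With other genes weighted to the members' length classes the shares were 3.48% and 39.9%, and the differences were 4.35 and 20.1 points. Without the largest cluster, the same weighting gave -1.47 points in the learning list and 7.35 points in the homecage list, so the sign in the learning list rests on that cluster.

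The class of genes up to 1000 bp holds most members. In it 16 of 187 members (8.56%, interval 4.97 to 13.5) had a learning peak, against 1.73% of 1390 other protein-coding genes. In the homecage list 113 of 187 (60.4%, 53.0 to 67.5) had one, against 35.5%. Many of these 1390 genes are themselves Olfr or Vmn2r receptor genes. The 607 that are not had shares of 2.80% (1.64 to 4.45) and 24.9% (21.5 to 28.5). Outside the largest cluster, 106 members of this length had shares of 1.89% and 46.2% (36.5 to 56.2). The learning share lay within the interval of the 607. The homecage share was above both sets, but its interval overlapped that of the 1390 genes (33.0 to 38.1).

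The largest cluster carried most of the learning peaks at members. There 14 of 86 members (16.3%, interval 9.20 to 25.8) had a learning peak and 67 of 86 (77.9%, 67.7 to 86.1) a homecage peak. Among the 144 members elsewhere, 4 (2.78%, 0.762 to 6.96) had a learning peak and 71 (49.3%, 40.9 to 57.8) a homecage peak. The intervals of these groups do not overlap in either list. On chromosome 7 outside the largest cluster, 0 of 40 members had a learning peak, which allows a share of up to 8.81%, and 17 (42.5%) had a homecage peak.

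The intervals of the other clusters of at least 5 members overlapped, and most are wide. On chromosome 6, 18 of 28 members of cluster 3 had a homecage peak, 4 of 8 in cluster 4 and 6 of 15 in cluster 5. On chromosome 7 the counts were 4 of 11 in cluster 7, 3 of 6 in cluster 8, 9 of 13 in cluster 9 and 0 of 5 in cluster 10. The chromosome 13 cluster had 15 of 35 and the chromosome 17 cluster 8 of 14. Learning peaks were found at 1 member each of cluster 3, the chromosome 13 cluster and the chromosome 17 cluster, and at Vmn1r3 in the pair on chromosome 4. Homecage peaks covered 3.92% to 9.21% of the spans of these 9 clusters, where the rest of the same chromosomes was covered at 5.27% to 6.24%.

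**Figure D1:**
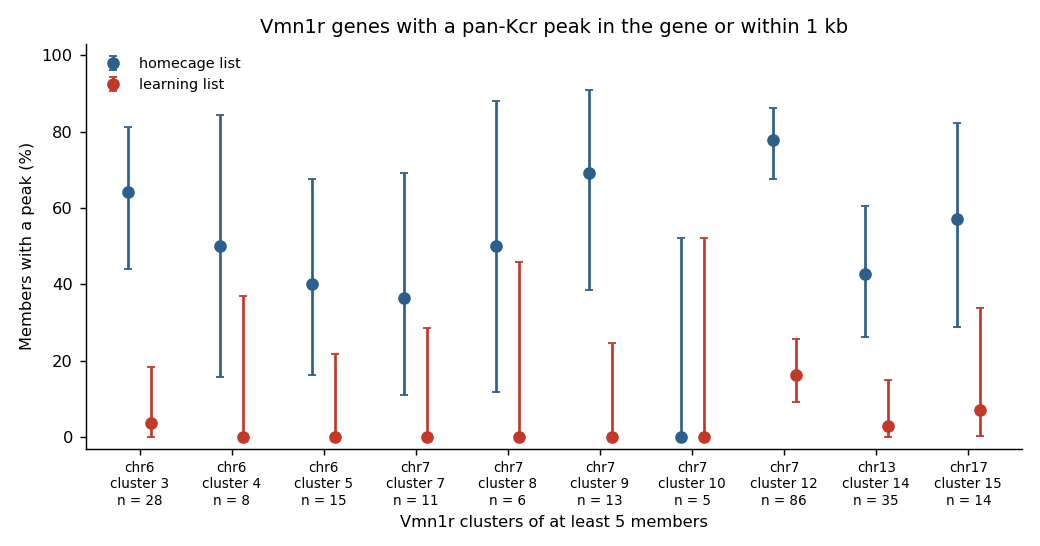
Share of Vmn1r genes with a peak in the gene or within 1 kb (vertical axis, %) for each cluster of at least 5 members (horizontal axis), with exact 95% intervals as bars, homecage in blue and learning in red. Cluster 12 has the highest share in both lists, 77.9% and 16.3%, and cluster 10 has no peak at its 5 members in either list.

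The high cover of the largest cluster was not limited to its Vmn1r genes. Learning peaks covered 1.83% of its span, 7.80 times the 0.234% of the rest of chromosome 7, and homecage peaks covered 20.9%, 3.60 times the 5.81% of the rest. Inside the member windows the cover was 2.03% and 26.5%, and in the cluster outside the windows 1.81% and 20.5%. The cluster held 187 learning and 1323 homecage peaks, which is 1.17% and 0.399% of the lists in 0.149% of the span of the chromosomes. In the 500 kb before and after it the cover returned to 0.169% and 0.289% (learning) and 6.04% and 5.86% (homecage).

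The cover was uneven along the cluster and the lists followed the same course. Homecage cover reached 33.9% and 39.0% in the first 2 steps of 250 kb and 34.8%, 43.6% and 38.7% between 2.0 and 2.75 Mb from the cluster start. Learning cover was highest in the same steps, 3.42% and 3.41% in the first stretch and 4.45%, 6.51% and 4.01% in the second. Between them, from 1.5 to 1.75 Mb, homecage cover was 7.99% and no learning peak was called. At a gap limit of 250 kb the cluster divided into 70 members (chr7:20101158-23251682) and 16 members (chr7:23504642-24055691). Of the 70, 14 (20.0%) had a learning peak and 62 (88.6%, 78.7 to 94.9) a homecage peak. Of the 16, 0 had a learning peak, which allows up to 20.6%, and 5 (31.3%, 11.0 to 58.7) a homecage peak, and cover of this stretch was 0.167% and 6.81%, against 0.279% and 6.23% of the rest of the chromosome. The learning value rests on 3 peaks.

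**Figure D2:**
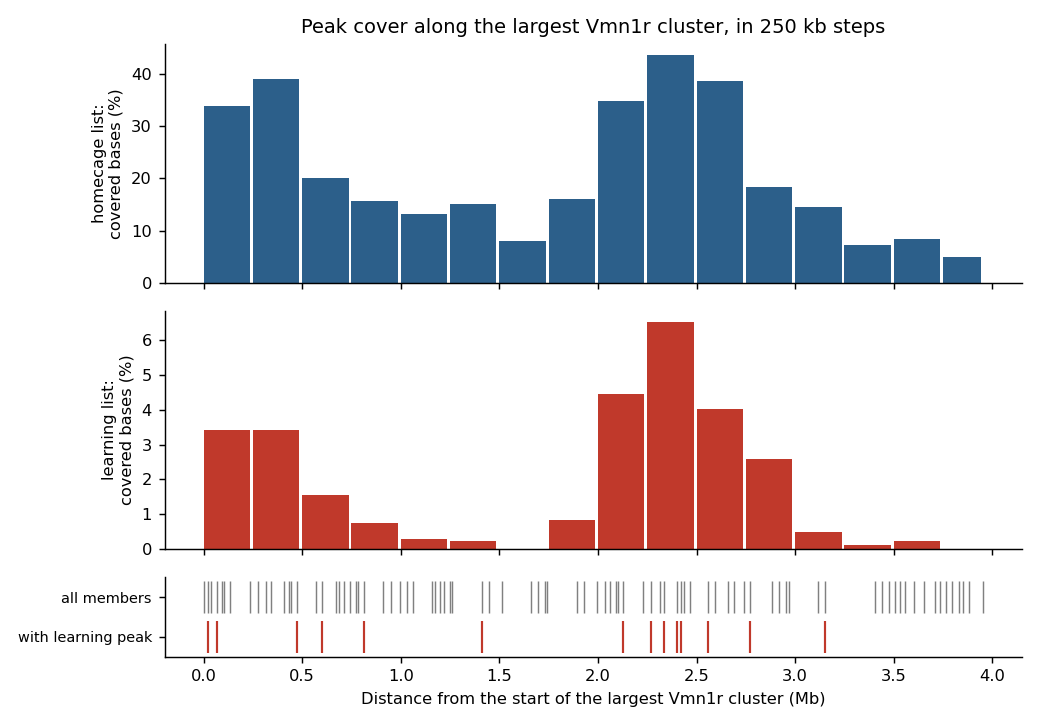
Bases covered by homecage (blue) and learning (red) peaks in 250 kb steps (vertical axes, %) along the largest Vmn1r cluster (horizontal axis, Mb from its start), with a grey tick for each member and a red tick for each member with a learning peak. Cover is highest in the same 2 stretches in both lists, up to 43.6% and 6.51%, and homecage cover is lowest at the far end, while learning cover is 0 both there and from 1.5 to 1.75 Mb.

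Peak cover was not highest at the annotated Vmn1r starts, which are start codons in most members. In the largest cluster, 33 of 83 members (39.8%) were covered by a homecage peak at the start itself. The highest value within 5 kb was only slightly above it, 41.0% (34 of 83) at 1600 bp before the start. The values 3 to 5 kb away averaged 24.9% with a range of 15.7% to 38.6%, all below the value at the start. Among the 122 other members 8.20% were covered by a homecage peak at the start, and the mean 3 to 5 kb away was 6.56%. Their highest value was 14.8%, at 4700 bp before the start. Learning cover at the start was 4.82% in the largest cluster against a distant mean of 2.41% with a range of 0 to 6.02%, and 0 of 122 elsewhere. Each learning value rests on 5 or fewer members.

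**Figure D3:**
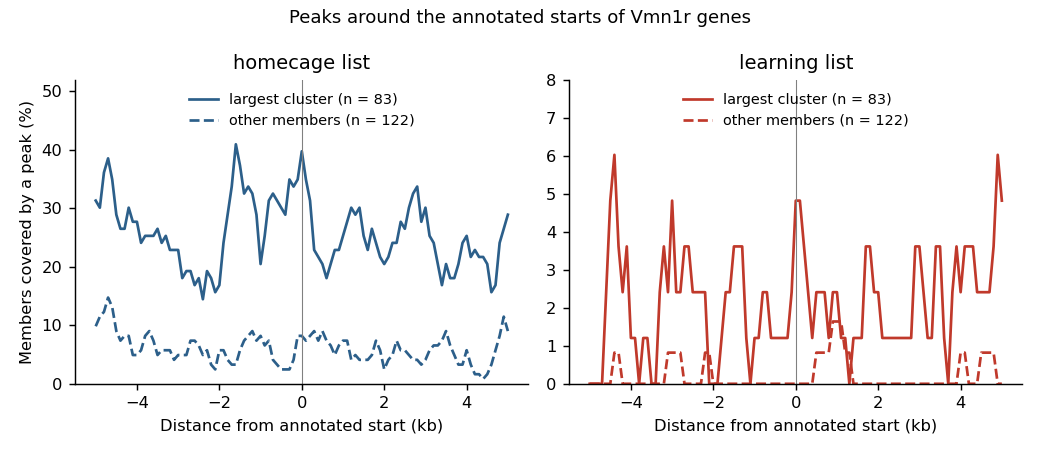
Share of Vmn1r genes covered by a peak (vertical axes, %) by distance from the annotated start (horizontal axes, kb, negative before the start), for 83 members of the largest cluster (solid) and 122 others (dashed), homecage left and learning right on different scales. The largest cluster lies above the others throughout the homecage panel and has no single maximum at the start.

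The start regions are poor in CG dinucleotides and alike within the largest cluster. The median number of CG sites in 300 bases was 1 for the 205 members and 13 for all 17492 protein-coding start regions in the table, and the median GC content was 36.0% against 56.3%. The annotated start is a start codon in 87.8% of the 205 members, 72.9% of Olfr genes and 9.55% of all genes. Comparisons with all genes, here and for the motifs below, therefore mostly set starts of translation against starts of another kind. Homecage peaks lay over the start region of 53 of 205 members (25.9%, interval 20.0 to 32.4) and of 18.9% of all genes, and learning peaks over 4 (1.95%) and 4.66%. In the largest cluster the counts were 40 of 83 (48.2%) and 4 of 83 (4.82%), and outside it 13 of 122 (10.7%) and 0 of 122. The 205 regions held 172 distinct sequences, 51 among the 83 of the largest cluster and 121 among the 122 others.

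A set of 3 short motifs was searched on both strands of the 300 bases. TAATTA, the core bound by LIM-homeodomain proteins such as Lhx2, was found in 15 of 205 members (7.32%), all of them among the 122 outside the largest cluster and 0 of the 83 inside it, against 18.7% of 940 Olfr and 4.68% of all start regions. CCCNNGGG, the core of sites bound by early B-cell factors (Ebf), was found in 1 of 205 (0.488%), against 3.09% of Olfr and 15.3% of all. TATAAA, the TATA box core, was found in 87 of 205 (42.4%), against 41.3% of Olfr and 13.3% of all. A match describes the letters and not a bound site.

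The share of members with a peak was highest where the start region had an exact copy. Likeness was measured as the number of edits between a member's 300 bases and those of its most alike member. With 0 edits, 49 of 54 members (90.7%, interval 79.7 to 96.9) had a homecage peak and 12 (22.2%, 12.0 to 35.6) a learning peak. With 1 to 10 edits the counts were 13 and 2 of 21, with 11 to 30 edits 15 and 0 of 25, with 31 to 60 edits 7 and 1 of 21, and with over 60 edits 38 (45.2%, 34.3 to 56.5) and 2 (2.38%) of 84. Exact copies and the largest cluster could hardly be separated, since 52 of the 54 lie in it. Inside the cluster 48 of 52 members with an exact copy and 12 of 19 with 1 to 10 edits had a homecage peak, and 2 of 7 with over 60 edits. Most of these 7 lie in the stretch of 16 members at the far end (chr7:23504642-24055691), where 5 had a homecage peak. No start region in that stretch has an exact copy, so likeness and position could not be separated inside the cluster either. Reads from identical bases cannot be assigned to 1 copy by sequence, and whether reads with several matches were kept is not given in the sources used here, so a peak at a copied member is uncertain as to which copy it belongs to. The part of this in the results was not tested.

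**Figure D4:**
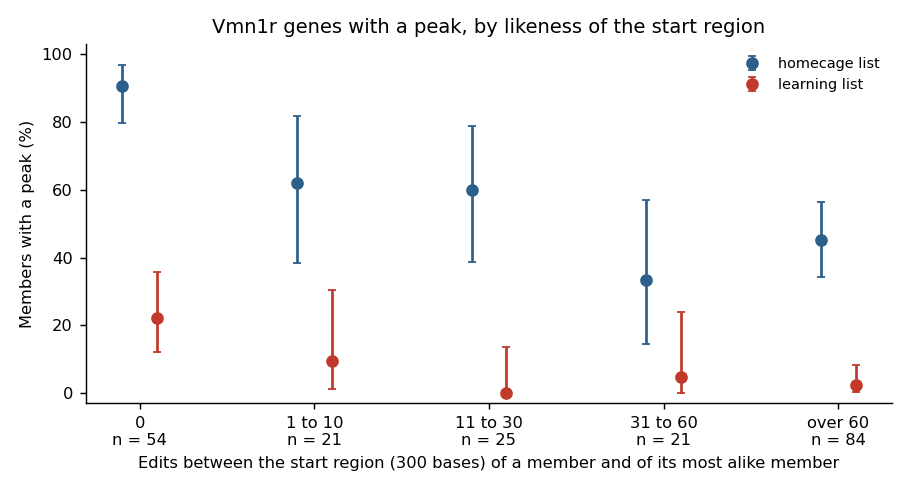
Share of Vmn1r genes with a homecage (blue) or learning (red) peak (vertical axis, %, exact 95% intervals) by the number of edits to the most alike start region (horizontal axis). Members with an exact copy have the highest share in both lists, 90.7% and 22.2%, and 52 of these 54 lie in the largest cluster.

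Members with identical start regions often differed in their peaks. The 54 members formed 21 sets with identical start regions, 20 of them on chromosome 7. A homecage peak was present at every member of 16 sets and at some members of 5. A learning peak was present at no member of 11 sets, at some members of 10 and at every member of 0, with 12 of the 54 members having one. In the set of 6 (Vmn1r111, Vmn1r118, Vmn1r131, Vmn1r138, Vmn1r257 and Vmn1r166), all had a homecage peak and 3 a learning peak, while the homecage cover of their windows ran from 5.03% to 93.7% and the widest peak from 147 to 2738 bp. Vmn1r47 and Vmn1r48, the identical pair on chromosome 6, had 0 and 1 homecage peaks.

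The cluster also repeats whole runs of genes. Runs were defined as at least 5 members in the same order and strand, with start regions within 10 edits and spacings within 1 kb. The run from Vmn1r93 to Vmn1r244 (chr7:20138123-20375410) matched that from Vmn1r250 to Vmn1r254 (chr7:22133776-22371039) in 7 pairs over 237.3 kb. Homecage peaks covered 33.7% of one and 34.7% of the other, and learning peaks 2.70% and 4.57%. The run from Vmn1r103 to Vmn1r111 matched that from Vmn1r151 to Vmn1r257 in 6 pairs, with homecage cover of 31.0% and 42.1% and learning cover of 2.53% and 5.30%. The run from Vmn1r247 to Vmn1r138 matched that from Vmn1r258 to Vmn1r166 in 6 pairs, with homecage cover of 12.6% and 13.4% and learning cover of 0.370% and 0.333%. Over runs of this length the copies in the first and last pair were close in homecage cover. Vmn1r116 to Vmn1r120 (chr7:20872256-21053784), a further copy of 5 members of the first run, had lower cover, 16.2% and 0.860%.

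Single copies varied within these runs. In the 19 pairs of the 3 runs described first, 17 had a homecage peak at both copies and 2 at 1 copy, and homecage cover differed between copies by a median of 18.0 percentage points (1.09 to 88.7). Vmn1r245 and Vmn1r255 had widest peaks of 2064 and 2063 bp, whereas Vmn1r93 and Vmn1r250 had 1291 and 4128 bp. Vmn1r246 and Vmn1r256 were covered at 18.8% and 71.1%, and Vmn1r138 and Vmn1r166 at 93.7% and 5.03%. A learning peak was present at exactly 1 copy in 9 pairs, at both in 0 and at neither in 10. Only 9 of these 38 members thus had a learning peak, and with so few the 0 is not read as a difference between copies. In the further copy, Vmn1r118 and Vmn1r252 both had a learning peak, with start regions 2 edits apart.

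**Figure D5:**
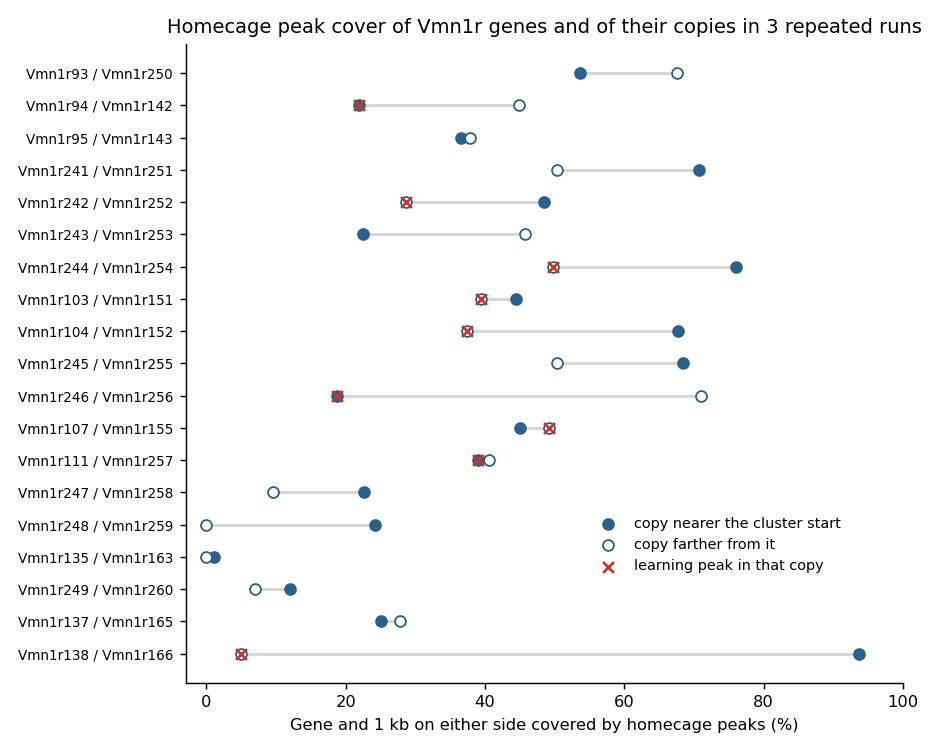
Homecage peak cover of the gene and 1 kb on either side (horizontal axis, %) for the 19 pairs of Vmn1r copies in 3 repeated runs (vertical axis), the copy nearer the cluster start as filled and the other as open circles, with a red cross on a copy that has a learning peak. Paired copies differ by up to 88.7 points, and no pair has a cross on both copies, where 9 of the 38 copies have a cross.

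Learning peaks at members were few and of about the width usual for the list. There were 20 in the windows of 18 members, with a median width of 326.5 bp against 306 bp for the whole list, and 8 of the 20 (40.0%, interval 19.1 to 64.0) overlapped a homecage peak, against 43.1% of all learning peaks. Vmn1r152 had the widest, 673 bp (chr7:22522573-22523245), over its whole start region and 187 bp from the nearest homecage peak. Vmn1r246 had 2, of 668 and 465 bp, on either side of its start. Vmn1r254 also had 2, of 291 and 148 bp, the first over its start and overlapping a homecage peak of 649 bp. Vmn1r111 (442 bp), Vmn1r252 (424 bp), Vmn1r160 (421 bp) and Vmn1r94 (377 bp) had 1 each.

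The 3 members with a learning peak and no homecage peak were Vmn1r130, Vmn1r195 and Vmn1r226. Vmn1r195 on chromosome 13 (gene chr13:22278317-22279404) had a learning peak of 643 bp over 20.8% of its window, and the nearest homecage peak lay 6251 bp away. Vmn1r226 on chromosome 17 (gene chr17:20687508-20688404) had one of 432 bp over 14.9% of its window, 2125 bp from a homecage peak. Vmn1r130 had one of 362 bp, 283 bp from a homecage peak. The start regions of Vmn1r195 and Vmn1r226 are 139 and 102 edits from any other member's, so these 2 have no near copy among members, while Vmn1r130 is identical there to Vmn1r137 and Vmn1r165.

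Homecage peaks at members were wider in the largest cluster. Their median width was 625 bp there (n = 105, quartiles 311 and 1179), 345.5 bp at other members (n = 94) and 351 bp in the whole list. Of the 105, 34.3% were at least 1000 bp wide, against 3.05% of all homecage peaks. The 10 members with the widest homecage peaks were Vmn1r250 (4128 bp), Vmn1r159 (3908 bp), Vmn1r244 (3399 bp), Vmn1r3 (3017 bp), Vmn1r138 (2738 bp), Vmn1r100 (2381 bp), Vmn1r101 (2316 bp), Vmn1r149 (2101 bp), Vmn1r245 (2064 bp) and Vmn1r255 (2063 bp). All but Vmn1r3 lie in the largest cluster. Vmn1r3 on chromosome 4 (gene chr4:3184385-3185305) was covered by it over 68.2% of its window and also held a learning peak of 199 bp inside it.

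In the other clusters of at least 5 members, except cluster 10 with no peak at a member, the member with the highest homecage cover had 15.9% to 47.8% of its window covered, against 93.7% for Vmn1r138 in the largest cluster. On chromosome 7 these were Vmn1r64 with 47.8% of its window and a peak of 1836 bp, Vmn1r71 with 26.9% and Vmn1r79 with 24.2%. On chromosome 6 they were Vmn1r29 with 27.2%, Vmn1r34 with 16.9% and Vmn1r43 with 15.9%. Vmn1r209 on chromosome 13 had 24.8%, and Vmn1r234 on chromosome 17 had 45.1% and a peak of 1348 bp. Vmn1r49, Vmn1r85 and Vmn1r89, which carry the older names V1rb2, V1rj3 and V1rj2, had no peak in either list. Vmn1r4, the longest member at 33695 bp, had 4 homecage peaks, 1 learning peak and a homecage cover of 2.40%. Vmn1r45 and Vmn1r51 also had 4 homecage peaks, the highest number on chromosome 6. On chromosome 7 the highest number was 3, at Vmn1r71, Vmn1r143, Vmn1r158 and Vmn1r253. The highest number was 2 on chromosome 13, at Vmn1r191 (20.6% of its window covered), and 2 on chromosome 17, at Vmn1r236 (12.3%). The single members on chromosomes 1 and 18 were Vmn1r1 with 0 and Vmn1r238 with 1 homecage peak, and Vmn1r2 on chromosome 4 had 1. Members without a homecage peak occurred in every larger group, the first by position being Vmn1r7 on chromosome 6, Vmn1r186 on chromosome 7, Vmn1r189 on chromosome 13 and Vmn1r224 on chromosome 17.

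The learning share was lower in olfactory receptor genes of similar length, and its interval did not overlap that of the 230 members. Olfr genes, the main olfactory receptors (1106 genes, median 950 bp), had a learning peak at 1.08% (interval 0.562 to 1.89) and a homecage peak at 48.6%. Against Vmn1r genes outside the largest cluster, with 2.78% and 49.3%, both intervals overlapped. Vmn2r genes, the type 2 vomeronasal receptors (123 genes), have a median length of 24544 bp and had shares of 8.94% and 95.1%. Their windows were covered at 0.154% and 6.91%, against 0.261% and 5.79% for Vmn1r genes outside the largest cluster. Taar, trace amine-associated receptors, had 0 and 2 of 15, Tas2r, bitter taste receptors, 0 and 9 of 35, and Fpr, formyl peptide receptors, 0 and 6 of 7. A learning count of 0 in these families allows shares of up to 21.8%, 10.0% and 41.0%.

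The genes through which these receptors signal and are controlled were read the same way. Of 32 listed genes of vomeronasal and olfactory signalling and sensory neuron identity, which are longer (median 71450 bp), 6 had a learning peak (18.8%, interval 7.21 to 36.4) and 30 a homecage peak (93.8%, 79.2 to 99.2). Protein-coding genes weighted to the same length classes had 39.0% and 87.8%. Gnao1, the G protein subunit used by type 2 receptors, had 3 learning peaks. Gnai2, the subunit used by type 1 receptors, had 1 learning and 5 homecage peaks. Ldb1, a cofactor of LIM-homeodomain proteins, and Lhx2 had 2 learning peaks each, and Kcnj3, a potassium channel subunit, and Ebf1 had 1 each. Trpc2, the channel of vomeronasal transduction, and Omp, the olfactory marker protein, had 0 learning and 2 homecage peaks each, and Gng8 had 0 and 1. Cnga2, the olfactory cyclic nucleotide-gated channel, and Tfap2e, a transcription factor of basal vomeronasal neurons, had no peak in either list. Several of these genes also act in the hippocampus.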

How the data were processed

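ChIP-seq peaks from 1 learning and 1 homecage library were analysed. The deposited files give 4 columns (chromosome, start, end and peak name), so the values are the authors' peak positions in base pairs, with no score, read count or depth. Broad peaks were called in each library at p 0.01, per the peak names in the deposited files. Trimmomatic, BWA, MACS2 and build mm10 are named without roles or versions in the submitters' processing notes. Whether an input served as control and how reads with several matches were treated is not given in the sources used here.

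Starts were converted to 1-based positions. Gene positions, names and 300-base start regions came from RefSeq tables of GRCm38.p6. Overlap was at least 1 bp with the gene and 1 kb on either side. Shares carry exact Clopper-Pearson 95% intervals, and no test between conditions was run. Calculations used scipy 1.17.1, pandas 2.3.3 and numpy 2.4.6 under Python 3.11.15, with edlib 1.3.9 for edit distances and matplotlib 3.10.9 for plots. The overlap functions were tested on simulated peaks. The complete set of other genes of similar length was used for comparison. Protein sequences were not used here.

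Members and lists were chosen with earlier results of these data known. The members named are those with a learning peak (the 10 with the widest), the 10 with the widest homecage peak, the member of highest homecage cover in each cluster of at least 5, those with the fewest and most homecage peaks per chromosome (the first by position in a tie), the synonyms V1rb2, V1rj2 and V1rj3, and the pair most alike. Further members are named as copies of these, for their counts, or after their values were seen. Alternatives were other windows, peak filters, cluster gaps, bins and length sets, and leaving out the largest cluster or the members below the first peak.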

Additional observations from a re-analysis of the deposited data

How the results depend on the processing

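Of 72 alternative values, 42 were counted as unmoved, 24 moved and 6 changed sign. Some of the 42 could not move. Merging peaks closer than 1 kb cannot give a peak to a gene window with 1 kb on either side that has none. Taar, Tas2r and Fpr genes had no learning peak in the wider window, so their gene bodies had none. An unmoved value is also not always close to the main value. The homecage share of Fpr genes was 42.9% in the gene body against 85.7%, within the wide interval of 42.1 to 99.6. The share of members with a learning peak (7.83%) was 14.8% with 3 kb and 27.0% with 10 kb beside the gene, 1.30% with peaks of at least 500 bp and 2.78% without the largest cluster. The homecage share (60.0%) was 38.7% in the gene body, 77.4% with 3 kb, 95.7% with 10 kb, 30.4% with peaks of at least 500 bp, 16.5% with as many of the widest homecage peaks as the learning list holds and 49.3% without the largest cluster. Against genes of similar length, the learning difference (-10.3 points) was -5.78 with 3 kb, -1.28 with 10 kb, -2.74 with peaks of at least 500 bp, -0.676 between the 5th and 95th length percentile, -1.47 by length classes without the largest cluster, and changed sign to 4.35 by length classes. The homecage difference (-16.9 points) was -31.5 in the gene body and -6.80 with 3 kb, and changed sign to 2.24 with 10 kb, 3.55 with the widest peaks, 7.58 between the percentiles, 20.1 by length classes and 7.35 by length classes without the largest cluster. Cover of member windows was 0.236% (learning, peaks of at least 500 bp), and without the largest cluster 0.261% (learning, below the 0.289% of all protein-coding genes, where the main value of 0.801% was above it) and 5.79% (homecage). Cover of all clusters with peaks of at least 500 bp was 0.265% against 0.743% (learning) and 7.34% against 11.4% (homecage). In the gene body the homecage share was 27.5% for Olfr and 8.57% for Tas2r genes. Length matching and window size change what is compared by construction, and the cause of the other moves was not tested. The length-class weighting and the values without the largest cluster or without the members below the first peak were added after the data were seen. No paired analysis was possible because only 1 antibody library per condition was analysed. The read depth is unknown, so the absence of a learning peak does not show absence of the mark.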

Other observations

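Vmn1r pseudogenes followed the same geography as the intact genes. Of 142, 3 (2.11%, exact interval 0.438 to 6.05) had a learning peak and 58 (40.8%, 32.7 to 49.4) a homecage peak. In the largest cluster 2 and 11 of 13 had one, and homecage peaks covered 28.1% of their windows, against 26.5% for the intact members there. Outside it the counts were 1 and 47 of 129, with a homecage cover of 5.58% against 5.79%. The 18 other protein-coding genes inside the largest cluster had a learning peak at 4 and a homecage peak at 15, with a homecage cover of 16.2%. Among them Nlrp5, an oocyte gene, had 0 learning and 18 homecage peaks in 56035 bp, and Nlrp4e had 1 and 16 in 61086 bp. V1rd19, a receptor gene whose symbol falls outside the naming rule, had no peak in either list, and Vmn1r-ps103, listed as protein-coding, had 0 and 1.

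In the 9 pairs of copied members with a learning peak at exactly 1 copy, that copy had the lower homecage cover in 8 and the higher in 1. This count was chosen after the values were seen, and the pairs are neighbours in the same 2 libraries, so it is given as a description. Homecage cover at matching positions, from 1000 bp before to 2000 bp after the start, was also compared between pairs of members of the largest cluster. Only members with a homecage peak were paired, so copies without one are left out. For 44 pairs with identical start regions, a median of 18.4% of the covered bases was shared (quartiles 10.2 and 35.3). The median was 15.8% (0.328 and 32.2) for 1654 pairs with 1 to 60 edits. For 382 pairs with over 60 edits it was 12.5% (0 and 24.35), so the quartile ranges overlap.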
